A study of Mus musculus with 6 samples.

Results

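The 7 genes described here encode parts of the phagocyte NADPH oxidase, the enzyme with which neutrophils make superoxide, and the proton channel that accompanies it. They were taken by gene name from the deposited table: *Cybb*, *Cyba*, *Ncf1*, *Ncf4*, *Rac1*, *Rac2* and *Hvcn1*, 7 of 29097 genes. All 7 lay above the filter on low expression (a mean FPKM of at least 1), which left 10440 genes to test. Neutrophils (CD45+CD11b+Ly6G+) were sorted from the peripheral blood (PB) of 8-week-old male C57BL/6 mice, after 14 d with silk ligatures on the molars (Lig in the labels, LIP here, for ligature-induced periodontitis) or without ligatures (Ctrl). Each group had 3 Smart-seq2 libraries, each from the pooled cells of 5 mice, so that differences between single mice were not measured.

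Between 52186555 and 57262379 reads were counted on genes per library. The libraries differed in composition beyond neutrophil genes: all 20 mature neutrophil markers listed for comparison were higher in LIP, and all 11 B cell, 10 T cell and 9 tested erythroid markers were lower, in edgeR's quasi-likelihood test at an adjusted p under 0.05. The defining marker of the sort, *Ly6g*, was at 17.4 CPM in Ctrl and 51.1 in LIP (CPM, library-scaled counts with TMM factors, a scaling that takes the bulk of genes as unchanged). *Cd79a* of B cells was at 1664 CPM in Ctrl and 269 in LIP, *Cd3e* of T cells at 43.4 and 5.95, and *Hbb-bs* of red cells at 32935 and 4102. In bulk libraries of this kind, fewer cells of a type and less RNA per cell cannot be told apart.

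In resting neutrophils the oxidase is kept in pieces. *Cybb* and *Cyba* encode the membrane cytochrome that carries electrons from NADPH to oxygen, *Ncf1* and *Ncf4* encode cytosolic factors that move to the membrane on activation, and a Rac GTPase in its GTP-bound form completes the active complex. Electron export leaves positive charge behind, and the voltage-gated proton channel encoded by *Hvcn1* carries protons out to balance it. Several of these transcripts are not restricted to neutrophils: *Rac1* and *Cyba* are widely expressed, *Rac2* is found across blood cells, and *Hvcn1* is well known in B cells.

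Promoter sequences of RefSeq (GRCm38.p6, the build of the deposited coordinates; 250 bases before to 50 after the start of RefSeq's gene) were held for 3 of the 7 genes, *Ncf1*, *Cyba* and *Cybb*, and are shown because these genes changed to different degrees. Capitals mark matches on either strand to GAAANNGAA, a core of interferon response elements. This core occurs in 8.56% of the 32851 promoter windows held. The *Ncf1* and *Cyba* windows lie at the 5′ ends of the genes as deposited, whereas the *Cybb* window follows RefSeq's start, which lies inside the longer span deposited for *Cybb*.
Ncf1, chr5:134229576-134229875, minus strand: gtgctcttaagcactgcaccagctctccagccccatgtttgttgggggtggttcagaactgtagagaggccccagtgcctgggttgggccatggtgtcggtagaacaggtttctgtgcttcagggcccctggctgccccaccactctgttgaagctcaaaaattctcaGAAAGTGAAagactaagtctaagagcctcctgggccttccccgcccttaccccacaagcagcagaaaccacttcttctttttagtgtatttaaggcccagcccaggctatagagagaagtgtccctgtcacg
Cyba, chr8:122432891-122433190, minus strand: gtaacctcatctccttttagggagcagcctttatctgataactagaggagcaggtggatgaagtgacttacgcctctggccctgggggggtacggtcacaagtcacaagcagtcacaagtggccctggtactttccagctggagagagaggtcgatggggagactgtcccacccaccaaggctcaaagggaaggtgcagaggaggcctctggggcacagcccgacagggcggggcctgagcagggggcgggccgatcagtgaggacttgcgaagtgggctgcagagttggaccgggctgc
Cybb, chrX:9469275-9469574, minus strand: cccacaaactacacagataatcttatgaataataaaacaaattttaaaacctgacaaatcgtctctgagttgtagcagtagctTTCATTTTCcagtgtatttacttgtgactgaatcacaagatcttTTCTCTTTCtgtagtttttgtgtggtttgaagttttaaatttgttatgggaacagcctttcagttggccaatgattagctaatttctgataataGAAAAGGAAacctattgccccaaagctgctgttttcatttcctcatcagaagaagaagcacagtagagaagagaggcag

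The *Ncf1* window holds 1 match, starting 82 bases before the gene start, the *Cybb* window holds 3 and the *Cyba* window none. The other motifs searched, GAGGAAG (a PU.1-like core, in 13.63% of windows), TTGCGCAA (a C/EBP palindrome, in 0.1826%) and TATAAA (in 13.62%), have no match in the 3 windows. A match is a description of letters and not a binding site.

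Among the membrane subunits, *Cyba*, the small chain that stabilizes the cytochrome, rose clearly in LIP, while *Cybb*, the catalytic chain, rose least of the genes that rose. *Cyba* (ENSMUSG00000006519, protein-coding, chromosome 8 from 122424776 to 122432930) was at 496, 615 and 536 CPM in the Ctrl libraries and at 1036, 1066 and 1033 CPM in the LIP libraries. Every LIP value lay above every Ctrl value, a log2 difference of 0.93 with a standard error of 0.0960 (adjusted p = 2.05e-05). *Cybb* (ENSMUSG00000015340, chromosome X from 9435252 to 9487771) was at 305, 265 and 355 CPM in Ctrl and at 383, 438 and 414 CPM in LIP. The groups were separated only narrowly, by the gap between the highest Ctrl and the lowest LIP library. The log2 difference came to 0.42 (95% interval from 0.15 to 0.68, adjusted p = 0.0139), and on the deposited FPKM scale the groups overlapped, at 45.8 to 62.2 in Ctrl and 54.0 to 62.3 in LIP. The call on *Cybb* was lost without LIP library 2 (log2 fold change 0.37, adjusted p = 0.0543), and over 16 alternatives other than scaling on neutrophil genes its adjusted p ran from 0.000815 to 0.553.

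*Ncf1* and *Ncf4*, which encode cytosolic factors, each about doubled. *Ncf1*, the organizer that bridges the cytosolic complex to the cytochrome (ENSMUSG00000015950, chromosome 5 from 134220053 to 134229625), was at 206, 182 and 229 CPM in Ctrl and at 424, 419.9 and 433 CPM in LIP. This made a log2 difference of 1.05 with a standard error of 0.108 (adjusted p = 1.94e-05), with no overlap between the groups and a smaller spread in LIP. *Ncf4*, whose product binds a phosphoinositide of phagosome membranes (ENSMUSG00000071715, chromosome 15 from 78244801 to 78262580), was at 181, 216 and 188 CPM in Ctrl and at 439.9, 461 and 474 CPM in LIP. It had the largest rise of the 7 genes, 1.23 on the log2 scale with a standard error of 0.103 (adjusted p = 4.45e-06), and again the groups did not overlap. *Ncf1* overlaps *Gtf2ird2* on the opposite strand, which had a mean of 729.7 reads per library, and its value is uncertain where reads fall in the overlap, as is that of *Rac1*, which overlaps *Daglb*.

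The Rac genes, molecular switches of which *Rac2* is the form particular to blood cells, rose by about the same factor. *Rac2* (ENSMUSG00000033220, chromosome 15 from 78559167 to 78572783) was at 862, 976 and 858 CPM in Ctrl and at 1822, 1828 and 1908 CPM in LIP. On the log2 scale it rose by 1.04, with a standard error of 0.0814 (adjusted p = 2.82e-06). *Rac1* (ENSMUSG00000001847, chromosome 5 from 143503634 to 143528036) was at 316, 331 and 316 CPM in Ctrl and at 619, 652 and 675 CPM in LIP, a rise of 1.02 on the log2 scale with a standard error of 0.0869 (adjusted p = 5.22e-06). For both genes every LIP library lay above every Ctrl library. The genes are close homologues, and how the counting treated reads shared between them is not given in the sources used here.

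*Hvcn1*, the proton channel (ENSMUSG00000064267, chromosome 5 from 122206804 to 122242297), went the other way. It was at 358, 345 and 400.2 CPM in Ctrl and at 61.0, 65.3 and 66.5 CPM in LIP, so that the lowest Ctrl library lay far above the highest LIP library. The difference was 5.72-fold, or -2.52 on the log2 scale with a standard error of 0.110 (adjusted p = 1.12e-07), and over 16 alternatives it stayed between -2.84 and -2.45, while scaling on mature neutrophil genes gave -4.40. *Hvcn1* overlaps *Tctn1* on the opposite strand, with 1228 to 1308 reads in Ctrl and 145 to 482 in LIP, beside 3027 or more on *Hvcn1* itself in each library.

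**Figure D1:**
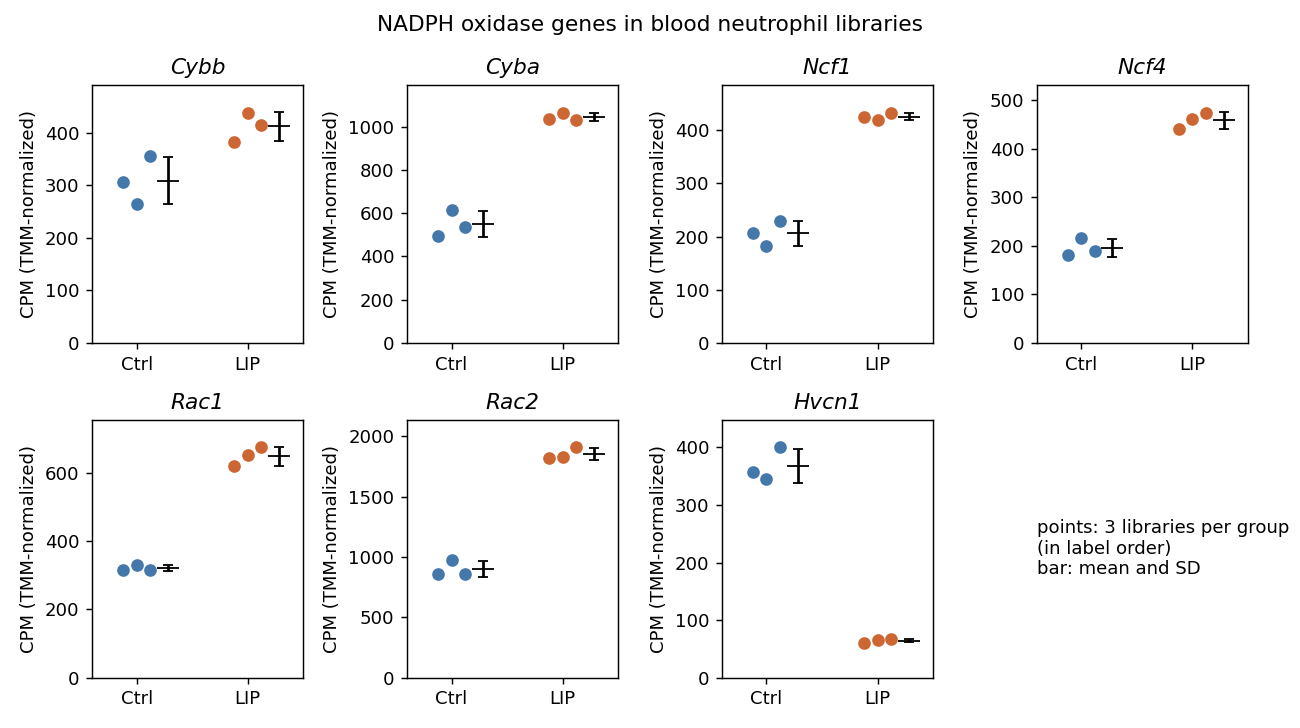
Level of each gene in each library in TMM-scaled CPM, on axes that start at 0, with points for the 3 libraries of Ctrl and LIP and a bar for the mean and SD. *Hvcn1* falls from 345 CPM or more to 66.5 or less, the other 6 genes are higher in LIP (a direction that turns when libraries are scaled on mature neutrophil genes), and *Cybb* shows the narrowest gap.

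The fall of *Hvcn1* ran beside that of B cell markers. The 11 B cell markers, all detected in every library and all lower, summed to between 18644 and 20783 CPM in Ctrl and between 3856 and 3901 in LIP. Their log2 fold changes had a median of -2.47, against -2.52 for *Hvcn1*. The log2 ratio of *Hvcn1* to the sum of these markers was -5.70, -5.91 and -5.59 in the Ctrl libraries and -6.00, -5.88 and -5.87 in the LIP libraries, and the groups overlapped. For the other 6 genes the same ratio was higher in LIP by 2.76 (*Cybb*) to 3.57 (*Ncf4*) on the log2 scale. The T cell and erythroid markers fell too, with medians of -2.50 and -3.01, and the part of B cell RNA in the result on *Hvcn1* was not tested.

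**Figure D2:**
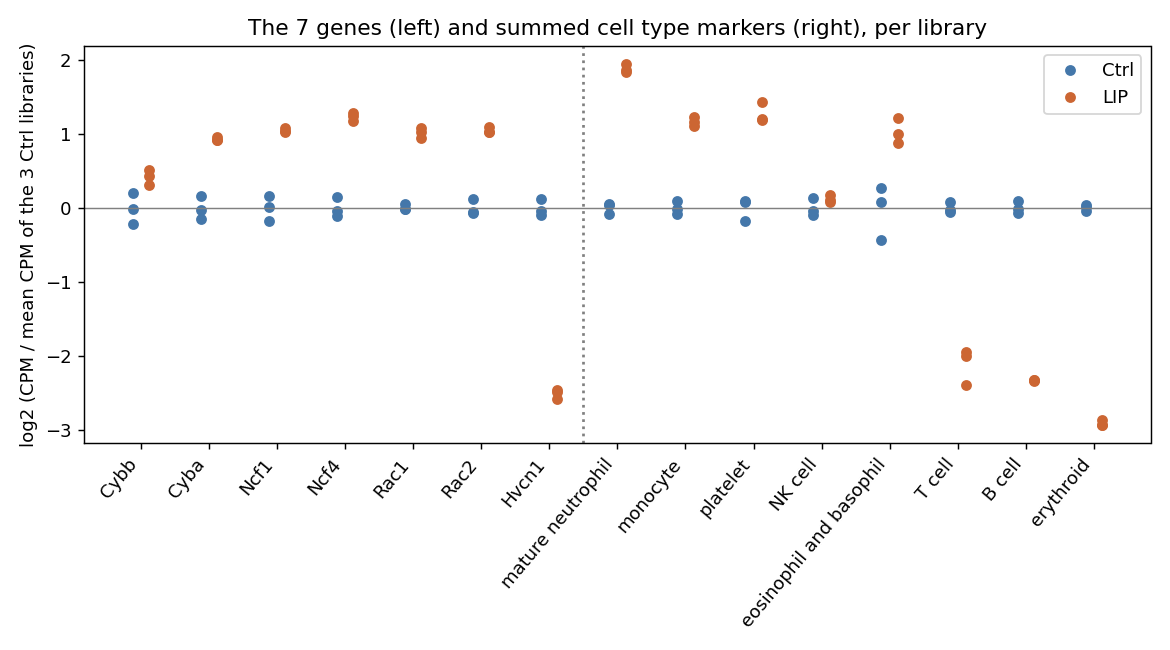
The 7 genes and the summed CPM of 8 cell type marker lists in each library, as log2 of the ratio to the mean of the 3 Ctrl libraries. *Hvcn1* lies with the B cell, T cell and erythroid sums, and the other 6 genes lie between the Ctrl level and the mature neutrophil sum.

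By counts, 6 of the 7 genes rose and 1 fell, where 26.5% of all genes tested were higher and 27.2% lower at an adjusted p under 0.05. In CPM, the groups did not overlap for any of the 7, which held upward for 30.3% and downward for 33.1% of all genes tested. The median log2 fold change of the 7 was 1.02, beside -0.09 over all genes tested. The direction of the 6 rising genes depended on the scaling. The 20 mature neutrophil markers summed to between 16710 and 18471 CPM in Ctrl and between 63519 and 68458 in LIP, a larger rise than that of any oxidase gene. Scaling libraries on these markers gave a median log2 fold change of -1.98 over all genes, and all 7 oxidase genes were then lower, from -0.65 for *Ncf4* to -1.47 for *Cybb* and -4.40 for *Hvcn1*. Relative to the median of all genes under the same scaling, the 6 genes were higher. With library totals in place of TMM the median of all genes was -0.42, 5 genes were higher, and *Cybb* was at 0.09 (adjusted p = 0.553).

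**Figure D3:**
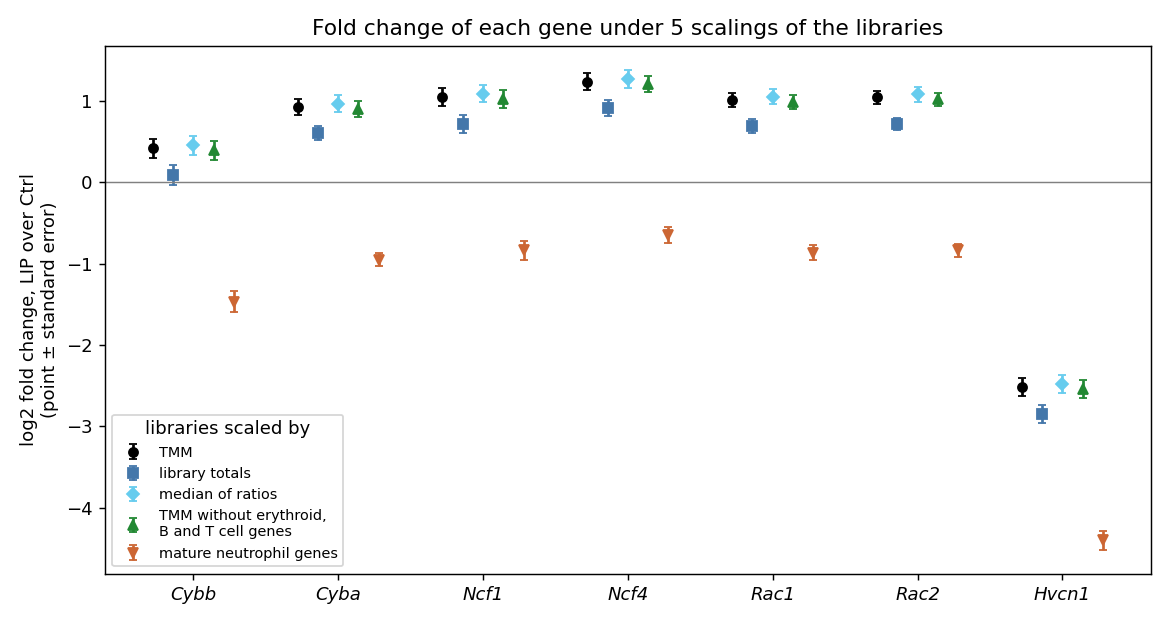
Log2 fold change of each gene, LIP over Ctrl, with its standard error, under 5 ways of scaling the libraries. The order of the genes is much the same in each, *Cybb* lowest of the 6 and *Hvcn1* far below, while scaling on mature neutrophil genes places all 7 under 0, between -0.65 and -4.40.

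The 3 Ctrl libraries did not vary alike in all genes. Ctrl library 2 was the lowest of its group for *Cybb*, *Ncf1* and *Hvcn1* and the highest for *Cyba*, *Ncf4*, *Rac1* and *Rac2*. Gene lengths, as implied by the deposited counts and FPKM, ran from 1121 bases for *Cyba* to 6266 for *Cybb*. All genes tested were split by length into 3 sets of 3480. In Ctrl library 2 the shortest set was above the group mean by a median of 0.12 on the log2 scale. The longest set was below it by the same amount (median -0.12). Ctrl library 1 leaned the other way, with medians of -0.09 for the shortest and 0.10 for the longest set. Between the groups, the median log2 fold change was -0.25 in the shortest set, -0.09 in the middle and -0.02 in the longest. *Cyba* belongs to the shortest set and *Cybb* to the longest. The part of gene length in these differences was not tested. Without Ctrl library 2 the log2 fold change was 0.34 for *Cybb* (adjusted p = 0.0189) and 1.04 for *Cyba*.

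Subunit proportions were read from FPKM, which is scaled to gene length. Ratios within a library do not depend on how libraries are scaled. They do take in the RNA of all cells in a library, and the libraries differed in composition. Nor does a lean by gene length, as in Ctrl libraries 1 and 2, cancel between genes of unlike length. *Cyba* was the most abundant of the 7 in both groups, at 538 ± 51.1 FPKM (SD, n = 3, as for each value here) in Ctrl and 828 ± 16.7 in LIP, followed by *Rac2* at 295 ± 18.4 and 492 ± 14.2. In Ctrl, *Hvcn1* ranked after *Rac2* with 105 ± 8.56 FPKM, within the spread of *Ncf4* at 98.2 ± 7.78, then came *Rac1* at 72.8 ± 1.27, and *Ncf1* (57.3 ± 6.94) and *Cybb* (54.2 ± 8.19) overlapped at the bottom. In LIP the order was *Ncf4* (187 ± 7.87), *Rac1* (119 ± 5.67), *Ncf1* (95.7 ± 1.70), *Cybb* (58.4 ± 4.21) and *Hvcn1* (14.8 ± 0.744), with no overlap between neighbours.

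As shares of the summed FPKM of these 7 genes, which are not the whole complex, *Hvcn1* went from 8.94, 7.56 and 9.42% in the Ctrl libraries to 0.800, 0.834 and 0.847% in the LIP libraries. *Cybb* went from 4.68, 3.57 and 5.13% to 3.08, 3.44 and 3.24%, lower in every LIP library. *Rac2* took 24.2% ± 0.840 in Ctrl against 27.4% ± 0.551, *Ncf4* 8.04% ± 0.271 and 10.4% ± 0.236, and *Rac1* 5.97% ± 0.256 and 6.62% ± 0.189 (SD, n = 3 each), each without overlap (p = 0.1 by a two-sided exact permutation test, which with 3 libraries against 3 can go no lower; 0.14 after Benjamini-Hochberg adjustment over the 7 shares). The shares of *Cyba*, at 42.5, 46.3 and 43.3% in Ctrl and 46.6, 46.7 and 45.2% in LIP, and *Ncf1*, at 4.72% ± 0.730 and 5.34% ± 0.104, overlapped between the groups (exact permutation test, p = 0.2 for each). Shares sum to a fixed total, so the fall of *Hvcn1* raises the others. Over the 6 genes other than *Hvcn1*, a denominator chosen after seeing the data, the shares of *Rac1* (6.87, 6.23 and 6.51% in Ctrl, 6.49, 6.66 and 6.88% in LIP) and *Rac2* (27.1, 26.6 and 25.6%, then 27.7, 27.0 and 28.2%) overlapped. *Ncf4*, at 8.74, 9.02 and 8.63% and then 10.3, 10.5 and 10.7%, was still higher in every LIP library, and *Cybb* still lower. The difference for *Cyba* turned to -1.62 percentage points, with overlap. In the shares over all 7 genes, leaving out Ctrl library 2 moved the difference for *Ncf1* from 0.62 to 0.20 percentage points and that for *Cyba* from 2.15 to 3.29, and without Ctrl library 1 the latter was 1.37.

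**Figure D4:**
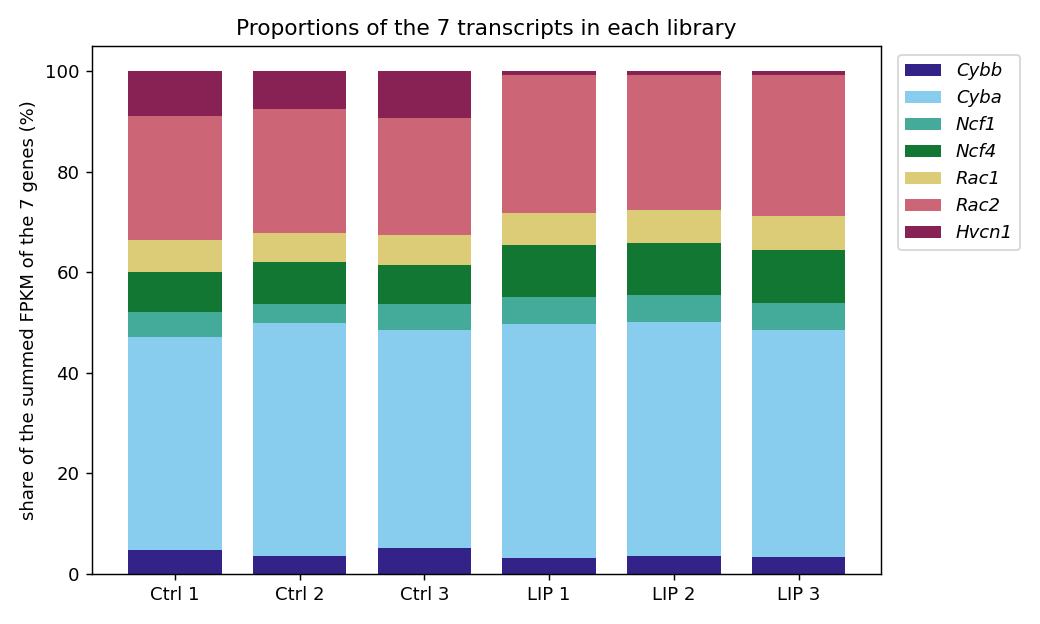
Stacked shares of the 7 genes in their summed FPKM, in percent, for each of the 6 libraries. The *Hvcn1* segment shrinks from a mean of 8.64% in Ctrl to 0.827% in LIP, while *Cyba* and *Rac2* make up most of every bar.

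Of 6 pairs of genes compared by their log2 FPKM ratio, 4 had been chosen to contain *Cybb*, and these 4 did not overlap between the groups. As they share *Cybb*, they are not 4 separate results. For the cytochrome chains, *Cybb* to *Cyba*, the ratio was -3.18, -3.70 and -3.08 in Ctrl and -3.92, -3.76 and -3.80 in LIP, a difference of -0.51. *Ncf1* to *Cybb* differed by 0.63 and *Rac2* to *Cybb* by 0.62, so that both ratios were higher in each LIP library than in any Ctrl library. Leaving out each library in turn moved the difference in *Cybb* to *Cyba* between -0.70 and -0.39. It moved that in *Ncf1* to *Cybb* between 0.58 and 0.69 and that in *Rac2* to *Cybb* between 0.48 and 0.79. *Hvcn1* to *Cybb* differed by -2.94, from 1.95 *Hvcn1* per *Cybb* in Ctrl to 0.254 in LIP by FPKM. Relative to the sum of B cell markers, *Hvcn1* differed by -0.18 and *Cybb* by 2.76 on the log2 scale. The part of B cell RNA in the ratio of *Hvcn1* to *Cybb* was not tested. Each of these 4 ratios with *Cybb* reached the smallest possible p of 0.1 in the two-sided exact permutation test (0.15 after Benjamini-Hochberg adjustment over the 6 pairs). The other ratios overlapped: *Rac2* to *Rac1* was 2.02 ± 0.0665 in Ctrl and 2.05 ± 0.0371 in LIP on the log2 scale (exact permutation test, p = 0.6), and *Ncf1* to *Ncf4* -0.78 ± 0.282 and -0.96 ± 0.0462 (SD, n = 3 each, exact permutation test, p = 0.4). The difference between groups in *Ncf1* to *Ncf4*, -0.18, was -0.34 without Ctrl library 2 and -0.08 without Ctrl library 3, and that in *Rac2* to *Rac1*, 0.03, lay between 0.01 and 0.07 without any 1 library. With 3 libraries a group, these p-values do not show that the ratios were alike.

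Around the oxidase, 81 gene names in 8 lists were followed, of which 58 were tested, 19 lay under the filter and 4 matched no deposited gene name. Their counts stand beside 26.5% higher and 27.2% lower, and their medians beside -0.09, over all genes tested, and nothing particular to a list was tested. Of the 58, 35 rose and 9 fell under TMM, whereas 54 were lower and none higher when libraries were scaled on mature neutrophil genes. Genes that supply NADPH came first: 6 of 10 rose and 1 fell, with a list median of 0.93. *Nadk*, which makes NADP from NAD, had a log2 fold change of 1.56, *G6pdx*, the first enzyme of the pentose phosphate pathway, one of 1.41, and *Taldo1*, transaldolase of the same pathway, one of 1.36. *Pgls*, which acts directly after *G6pdx*, fell by 0.89 on the log2 scale. These and all further changes of single genes named had an adjusted p under 0.05 in edgeR.

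Among kinases that phosphorylate the cytosolic subunits, 8 of 11 rose and 1 fell (median 0.97). *Mapk3*, *Akt2* and *Prkcd*, the last a protein kinase C known to act on the organizer subunit, had log2 fold changes of 1.20, 1.14 and 1.10. Of 7 exchange factors and adaptors that load Rac with GTP, 5 rose and 1 fell (median 0.76), among them *Prex1* with 1.13 and *Vav1* with 0.76, both known from neutrophils. Of 5 Rac inhibitors, 3 rose and none fell (median 0.35): *Abr*, a GTPase-activating protein, by 1.67, *Arhgap25* by 0.96 and *Arhgdib*, which holds Rac in the cytosol, by 0.35. The related GTPases *Rhog*, *Cdc42* and *Rhoa* rose by 1.38, 0.74 and 0.50. The other NADPH oxidases listed had a mean FPKM under 1 or matched no deposited gene name.

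Of 6 genes for the handling of the cytochrome and its membrane partners, 3 rose and 1 fell (median 0.31). *Rap1b* and *Rap1a*, small GTPases found with the cytochrome, rose by 0.82 and 0.55, and *Nrros*, a negative regulator of reactive oxygen species, by 0.58. The chaperone gene *Hsp90ab1* fell by 0.97 on the log2 scale. *Cybc1*, needed for stable cytochrome in phagocytes, was at 94.1 CPM in Ctrl and 98.7 in LIP (log2 fold change 0.07, adjusted p = 0.651), although *Cyba* rose.

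Genes that act on superoxide and peroxide were divided, with 4 of 8 higher and 3 lower (median 0.07). *Prdx5*, *Gpx4* and *Gpx1* rose by 1.37, 0.91 and 0.57, while *Prdx2*, *Cat* and *Sod1* fell by 1.78, 0.68 and 0.43 on the log2 scale. *Prdx2* and *Cat* are abundant in red cells, and the 9 erythroid markers, all lower, summed to between 131304 and 139772 CPM in Ctrl and between 17794 and 18544 in LIP. Of 8 transcription factors known for oxidase genes, 3 rose and 2 fell (median 0.21), or 37.5% and 25%, near the shares over all genes. *Spi1*, which encodes PU.1, rose by 1.53, *Cebpb* by 1.40 and *Irf1* by 1.14, while *Irf8*, also a factor of B cells, fell by 1.15 and *Elf1* by 0.72. The part of red cell and B cell RNA in these falls was not tested.

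**Figure D5:**
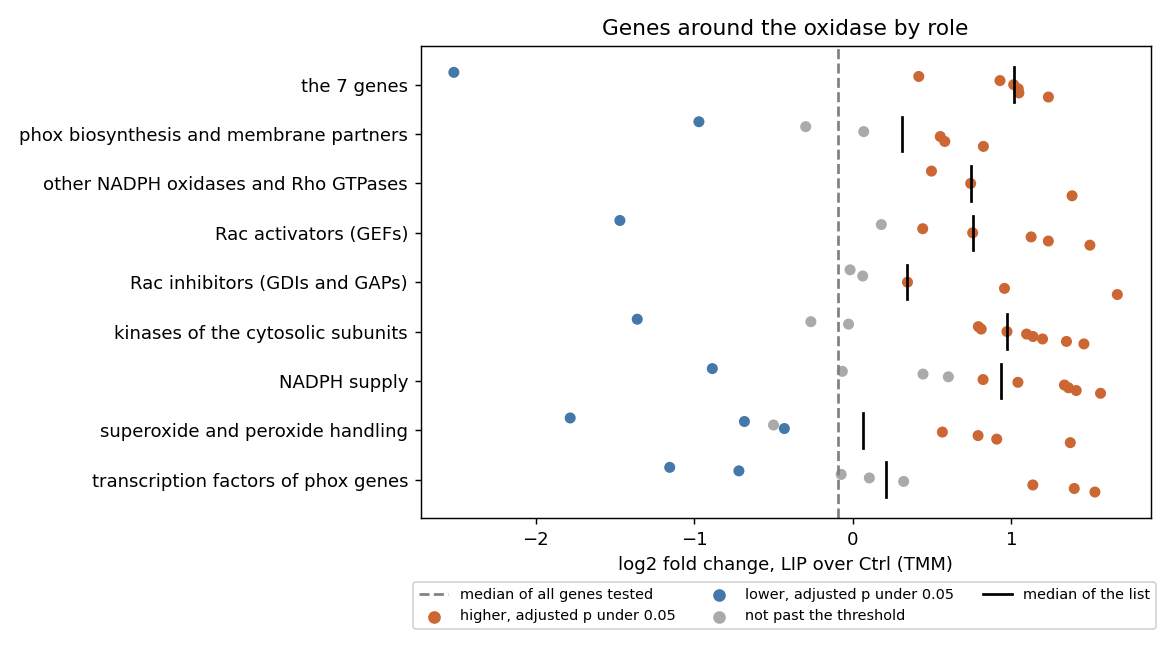
Log2 fold changes, LIP over Ctrl under TMM, of the 7 genes and of 8 lists around the oxidase, with a bar at each list's median and a dashed line at the median of all genes tested (-0.09). Orange and blue points passed an adjusted p of 0.05 upward and downward, and none passed upward when libraries are scaled on mature neutrophil genes.

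Under TMM, monocyte and platelet markers moved in the same direction as the rising subunits. All 8 monocyte markers were higher in LIP, with sums of 682 to 767 CPM in Ctrl and 1554 to 1681 in LIP and a median log2 fold change of 1.09, and all 8 platelet markers were higher (median 1.24). Of 5 eosinophil and basophil markers tested, 1 was higher, with sums of 15.7 to 25.6 and 39.0 to 49.1 CPM, and of 7 natural killer cell markers 3 were higher (median 0.20). None of the listed markers that the data hold was at 0 in every library. An eosinophil and basophil marker under the filter, not among those tested, was at 0 in some. In LIP, the log2 ratio to the monocyte sum differed from Ctrl by -0.23 for *Cyba*, -0.11 for *Ncf1* and 0.07 for *Ncf4*. For *Rac1*, *Rac2* and *Cybb* it differed by -0.15, -0.12 and -0.74. Against the mature neutrophil sum, the differences of the 6 genes ran from -1.46 (*Cybb*) to -0.65 (*Ncf4*). Against the eosinophil and basophil sum they ran from -0.63 (*Cybb*) to 0.18 (*Ncf4*). The part of monocyte, eosinophil or platelet RNA in the rise of the 6 genes was not tested.

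The genes nearest to each member in the shape of their log2 CPM over the 6 libraries, by Euclidean distance among 3380 well expressed genes (a mean FPKM not under 10), were found as a description. A gene near in shape has about the same difference between the groups by construction. The nearest to *Cyba* was *Arpc2*, an actin-branching subunit, at a distance of 0.0439, to *Ncf1* *Rin3* at 0.0822, to *Rac1* *Ier5* at 0.0821 and to *Cybb* the antiviral gene *Zc3hav1* at 0.142. For *Hvcn1* it was *Bank1*, a B cell scaffold gene, at 0.204, which went from 353 to 61.2 CPM. The nearest to *Ncf4* and *Rac2* were the pseudogenes *Gapdh-ps16* and *Rab7-ps1*, uncertain because reads can be shared with the parent genes.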

How the data were processed

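PB neutrophils were sorted from 3 pools of mice per group and profiled by Smart-seq2, a full-length, PCR-amplified method without molecular identifiers, so counting errors treat copies as reads. The authors deposited raw counts per gene and FPKM values, normalized by the authors to gene length and library total. The submitters' processing notes name cutadapt 1.9, FastQC and GRCm38. The aligner, counter and use of strand are not given in the sources used here.

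Counts were tested with edgeR 4.0.16 in R 4.3.3 (quasi-likelihood, TMM, no replicate block, Benjamini-Hochberg over 10440 genes, those of mean FPKM 1 or more), with a call at an adjusted p under 0.05. The standard error was taken from each log2 difference and its F statistic. Of 50 repeated gene names the more abundant entry was kept. Ratios and shares were compared by exact permutation tests. No pair of libraries of the same group was identical (chi-square per gene of 51.9 or more), and pairs across the groups were not compared. The alternatives used other scalings and filters, DESeq2 1.42.0, limma 3.58.1 on log2(FPKM + 1) or with a pseudocount of 0.1, a block and leaving out libraries. The fits across genes were run on simulated counts with few changed genes, balanced up and down, and less spread than these libraries. The choice of scaling was therefore not tested by them. The members, lists and tests were chosen with earlier results of these data known. Per list, up to 3 called genes in each direction at a mean FPKM of 10 or more were named. *Cybc1* and the overlapping genes were named after their values were seen, and the defining cell markers were fixed by name. Some other components of the oxidase are not reported here, and shares are over the 7 genes alone.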

Additional observations from a re-analysis of the deposited data

How the results depend on the processing

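*Hvcn1* was lower in every alternative, and *Cyba*, *Ncf1*, *Ncf4*, *Rac1* and *Rac2* were higher at an adjusted p under 0.05 in all 16 alternatives other than scaling on mature neutrophil genes, where *Cybb*, *Cyba*, *Ncf1*, *Ncf4*, *Rac1* and *Rac2* turned to -1.47, -0.95, -0.84, -0.65, -0.87 and -0.84. Under that scaling 0 of the 7 genes were higher and 7 lower, their median was -0.87, 44 of all genes were higher and 9357 lower, and 0 of the genes around the oxidase were higher and 54 lower. With library totals, limma at a pseudocount of 1 and at 0.1, and a mean FPKM of at least 5, the median of the 7 was 0.69, 0.70, 0.71 and 0.84, and *Cybb* lost its call in each. The genes around the oxidase that were lower numbered 16 with library totals and 14 in both limma fits, and 1761 genes were higher with the FPKM filter of 5, where 5328 genes were tested. Shares moved with their denominator. With counts in place of FPKM they differed by -2.47 percentage points for *Cybb*, 1.43 for *Ncf1*, 1.93 for *Rac1*, 6.19 for *Rac2* and -11.6 for *Hvcn1*. Without *Rac1* and *Rac2* they differed by 6.95 for *Cyba*, 1.34 for *Ncf1*, 4.27 for *Ncf4* and -11.1 for *Hvcn1*, and over *Cybb*, *Cyba*, *Ncf1* and *Ncf4* alone by -2.30, -1.02 and 2.85 for *Cybb*, *Cyba* and *Ncf4*, which reverses the direction for *Cyba*. Without *Hvcn1* (added after seeing the data) *Cyba* reversed to -1.62, and *Ncf4*, *Rac1* and *Rac2* differed by 1.70, 0.14 and 1.18.

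Leaving out each library in turn gave 5 or 6 higher genes and 1 lower. Same-numbered libraries were not treated as pairs. Their deviations correlated at 0.0210 to 0.0562, and those of Ctrl library 1 and LIP library 3 at 0.0217. The other differently numbered libraries lay between -0.0504 and -0.0019, and whether same-numbered libraries shared a batch was not tested. With the replicate number as a block, 6 of the 7 genes were higher and 1 lower, and 2724 and 2822 of all genes were. The exact paired test of ratios cannot go below p = 0.25.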
